A study of Mus musculus with 468 samples.

Results

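The genes described here encode 40 proteins of the lysosome and the factors that control it, measured by RNA sequencing in adipose tissue of Diversity Outbred mice. The members were chosen by name as lysosome genes, with earlier results of these data known, and each was matched by its symbol to 1 of the 23180 genes in the deposited count table. All 40 members were found, and all 40 were among the 18380 genes that passed the filter on low counts (10 or more counts in no fewer than 50% of libraries), so none was lost to it. Diversity Outbred mice are an outbred stock bred from 8 inbred founder strains, and nearly every mouse is genetically unique. The mice were adults at harvest that had been fed a diet high in fat and sugar, and each gave 1 library, so that a spread between libraries holds both mouse-to-mouse differences and assay error. There was no treated and no control group, and the labels give no sex, generation or body weight. The study names the gonadal fat pad as the adipose depot of these mice. The tissue was pulverised whole, so each value is an average over adipocytes, immune cells, vessels and any adjoining tissue.

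Lysosomes are acidic organelles that break down proteins, lipids, glycans and nucleic acids delivered by endocytosis, phagocytosis and autophagy. A proton pump in their membrane keeps the interior acidic, soluble hydrolases do the digestion, membrane proteins protect the organelle and carry the products out, and the transcription factors Tfeb and Mitf bind short E-box sequences in front of many of these genes. Macrophages are rich in lysosomes, and in obese adipose tissue they gather around dying adipocytes and take up lipid, whereas adipocytes use lysosomes in autophagy and in lipid turnover.

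The promoters of the genes are shown first because they differ in the sequences that factors of the Tfeb and Mitf family bind. Each promoter was taken from RefSeq (GRCm38.p6) as 250 bases before and 50 bases after the start of a gene, and at least 1 such promoter was given for 34 of the 40 members. The E-box core CACGTG, searched on both strands, was in a promoter of 12 of these 34 members and in 8.09% of the 27025 genes in the RefSeq table. The longer palindrome TCACGTGA, each copy of which contains the core, was in 6 of the 34 members (Atp6v0d1, Atp6v1a, Ctsa, Ctsd, Gla and Mcoln1) and in 1.13% of all genes. The sequence GAGGAAGT, of the kind bound by the myeloid factor PU.1, was in 4 members (Ctsc, Ctss, Gla and Gusb) and in 3.69% of all genes. A match describes the letters of the window and does not show that a factor binds there. The promoters that hold the longer palindrome follow with that of Lamp1, which holds 4 copies of the core, and that of Ctss, the member that rose most with macrophage content. Capitals mark each copy of CACGTG, TCACGTGA or GAGGAAGT, and a copy of GAGGAAGT on the opposite strand appears as its reverse complement.
Ctsa (chr2:164833523-164833822, + strand): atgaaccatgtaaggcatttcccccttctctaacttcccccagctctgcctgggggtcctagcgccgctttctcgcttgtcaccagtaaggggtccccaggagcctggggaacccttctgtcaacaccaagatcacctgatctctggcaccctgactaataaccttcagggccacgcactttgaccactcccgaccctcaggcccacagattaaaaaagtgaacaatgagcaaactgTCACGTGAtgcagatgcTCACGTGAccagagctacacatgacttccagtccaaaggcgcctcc
Ctsd (chr7:142387778-142388077, - strand): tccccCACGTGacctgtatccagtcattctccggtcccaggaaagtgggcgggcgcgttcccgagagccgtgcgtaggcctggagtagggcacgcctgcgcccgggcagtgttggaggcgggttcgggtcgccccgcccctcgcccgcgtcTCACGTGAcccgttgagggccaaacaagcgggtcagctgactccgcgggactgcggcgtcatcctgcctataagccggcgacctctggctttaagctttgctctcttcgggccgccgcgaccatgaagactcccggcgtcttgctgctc
Gla (chrX:134600956-134601255, - strand): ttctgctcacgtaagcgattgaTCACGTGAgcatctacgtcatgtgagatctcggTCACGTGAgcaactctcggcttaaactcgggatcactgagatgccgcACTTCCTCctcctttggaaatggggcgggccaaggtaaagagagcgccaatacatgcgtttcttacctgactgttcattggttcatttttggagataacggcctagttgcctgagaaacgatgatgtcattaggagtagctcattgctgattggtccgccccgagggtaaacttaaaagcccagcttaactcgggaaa
Mcoln1 (chr8:3500269-3500568, + strand): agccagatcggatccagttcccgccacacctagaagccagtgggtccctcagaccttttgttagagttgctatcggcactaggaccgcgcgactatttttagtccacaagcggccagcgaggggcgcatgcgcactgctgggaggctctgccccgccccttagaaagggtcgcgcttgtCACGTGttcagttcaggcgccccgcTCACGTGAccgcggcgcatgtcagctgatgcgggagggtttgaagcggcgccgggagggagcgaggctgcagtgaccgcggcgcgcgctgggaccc
Atp6v0d1 (chr8:105566015-105566314, - strand): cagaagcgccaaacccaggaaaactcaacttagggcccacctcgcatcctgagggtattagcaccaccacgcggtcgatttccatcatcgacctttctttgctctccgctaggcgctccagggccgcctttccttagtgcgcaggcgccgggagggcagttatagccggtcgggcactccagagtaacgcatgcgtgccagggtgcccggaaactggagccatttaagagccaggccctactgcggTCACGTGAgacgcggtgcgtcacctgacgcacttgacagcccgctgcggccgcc
Atp6v1a (chr16:44139210-44139509, - strand): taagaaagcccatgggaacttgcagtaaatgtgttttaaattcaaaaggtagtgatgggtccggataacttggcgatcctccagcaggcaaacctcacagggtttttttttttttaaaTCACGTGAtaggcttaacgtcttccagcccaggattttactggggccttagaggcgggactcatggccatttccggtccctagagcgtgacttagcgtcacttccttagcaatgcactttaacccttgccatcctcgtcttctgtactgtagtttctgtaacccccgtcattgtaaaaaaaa
Lamp1 (chr8:13158911-13159210, + strand): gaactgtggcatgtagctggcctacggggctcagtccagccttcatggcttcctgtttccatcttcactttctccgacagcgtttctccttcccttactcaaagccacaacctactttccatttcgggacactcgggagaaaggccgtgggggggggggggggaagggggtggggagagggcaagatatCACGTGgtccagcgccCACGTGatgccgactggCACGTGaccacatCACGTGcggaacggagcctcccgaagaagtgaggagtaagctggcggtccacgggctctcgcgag
Ctss (chr3:95526536-95526835, + strand): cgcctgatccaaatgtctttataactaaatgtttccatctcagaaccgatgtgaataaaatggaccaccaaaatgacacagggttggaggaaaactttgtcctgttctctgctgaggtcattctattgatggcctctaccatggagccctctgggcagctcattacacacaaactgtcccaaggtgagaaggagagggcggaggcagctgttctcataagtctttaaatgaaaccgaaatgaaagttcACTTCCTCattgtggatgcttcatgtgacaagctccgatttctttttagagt
In positions relative to the start, with negative positions before it, the copy of TCACGTGA began at -4 in Atp6v0d1, at -132 in Atp6v1a, at -99 in Ctsd and at -46 in Mcoln1. Gla held copies at -228 and -195, and Ctsa held 1 copy at -13 and 1 just after its start. The copies of the core in Lamp1 began at -61, -45, -28 and -15, and the PU.1-type sequence in Ctss began at -2.

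Levels are given as CPM, counts per 1000000 counts of a library, scaled with TMM factors. The summed level of the 40 members was 5609 CPM in the lowest library, 9085 CPM in the median library and 22910 CPM in the highest. The protease genes Ctsb and Ctsd and the saposin precursor Psap made up 49.58% of the mean sum. Per kilobase of exon, so that genes can be compared, Ctsd had the highest level with 624.4 ± 172.5 CPM per kb (mean ± SD over all libraries), followed by Psap with 617.8 ± 174.7 and Ctsb with 290.9 ± 89.6. The difference between Ctsd and Psap was smaller than either SD. At the other end Tfeb had 1.80 ± 0.348 CPM per kb, below Gla with 3.28 ± 1.77, Mitf with 3.33 ± 0.958 and Manba with 3.34 ± 1.06, and the last 3 of these also differed by less than their SD. No member was at 0 in any library.

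The members differed in how much they varied between mice. The SD of log2 CPM over all libraries was lowest for Atp6ap1 (0.14), an accessory subunit of the proton pump, and highest for Ctss (1.196), a protease of antigen-presenting cells. Its median over the members was 0.37, beside 0.46 over all genes tested and 0.27 over the 9508 genes whose mean reached 10 CPM. The mouse DO088 had the highest level of 19 members, and the mouse DO283 had the lowest level of 13 members and the highest level of 3 (Glb1, Neu1 and Man2b1). DO283 was 1 of 34 libraries that stood apart from the rest, 25 of them by transcripts of the epididymis, 3 by skeletal muscle, 2 by pancreas, 2 by ribosomal RNA and 2 by having neither Y chromosome counts nor Xist. For each fit to all libraries, the calls that changed without these 34 libraries are given beside it. Total counts ranged from 35.3 M to 137.8 M, with a median of 82.04 M. Counts of the Y chromosome genes Ddx3y, Eif2s3y, Kdm5d and Uty were absent from 48.5% of the libraries and present in 51.5%. The presence of Y counts was used as a stand-in for sex. In the plot of levels by role, the medians of these groups lay close together for most members and farthest apart, as a ratio, for Ctss and Cd68.

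**Figure D1:**
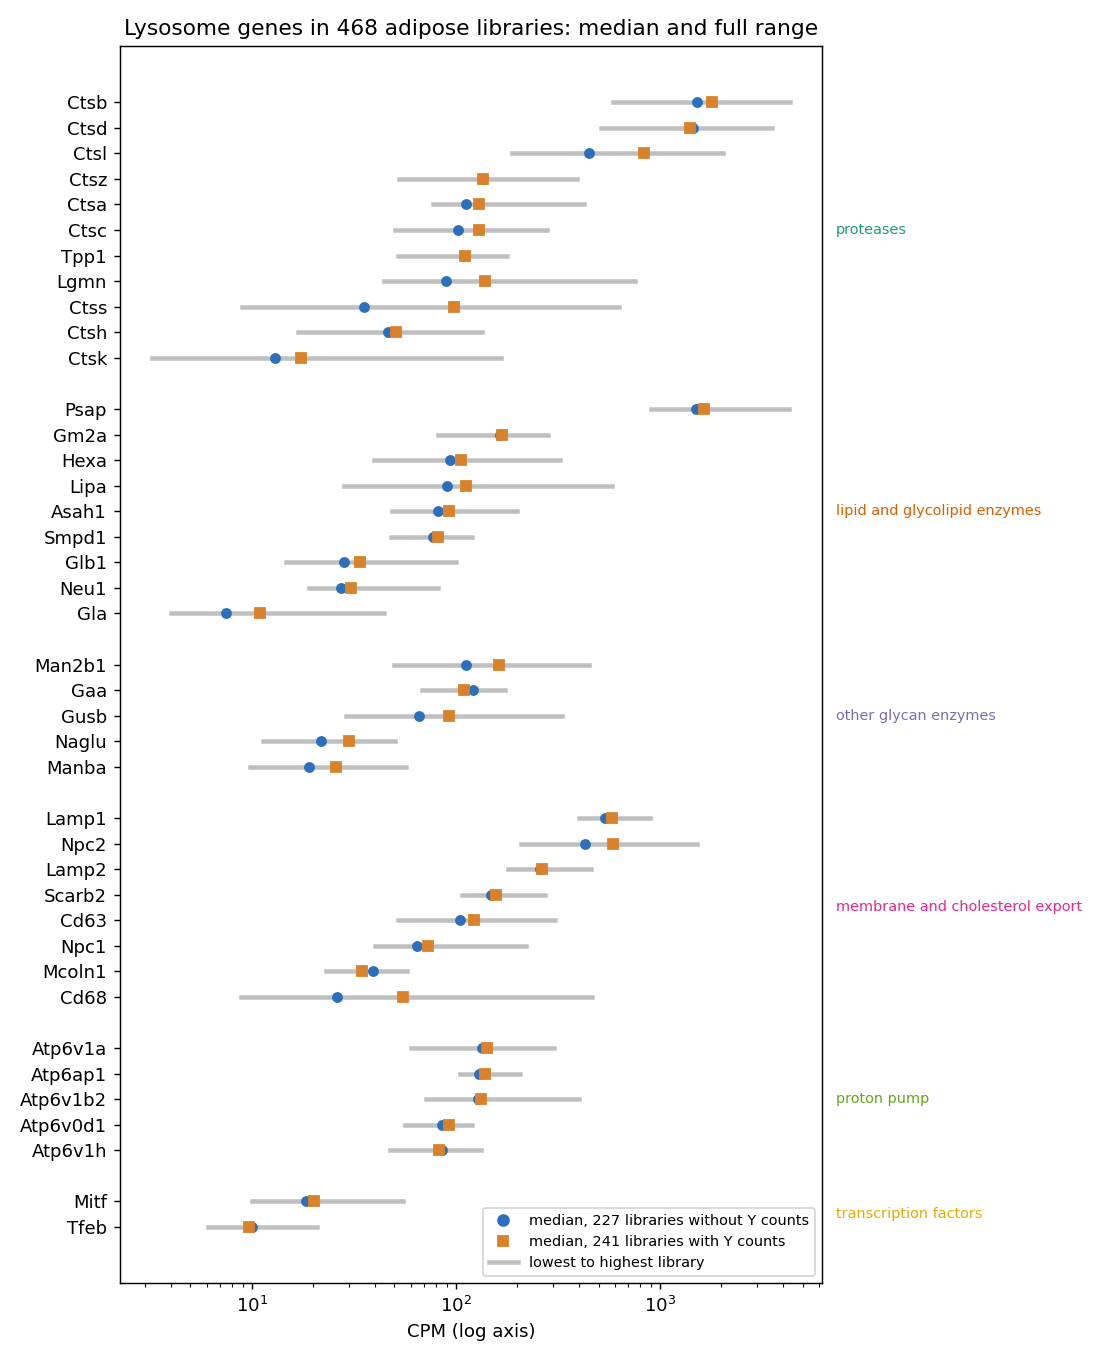
Level of each of the 40 lysosome genes in CPM on a log axis, grouped by role. Grey bars run from the lowest to the highest of all libraries, circles are medians of the libraries without Y counts and squares are medians of those with them. Ctsb, Psap and Ctsd lie highest, Tfeb and Gla lie lowest, and the longest bars belong to Ctss, Cd68 and Ctsk.

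To ask which lysosome genes moved with macrophage content, each gene was fitted against Adgre1, which encodes the macrophage surface protein F4/80. Adgre1 was 10.7 CPM in the lowest library, 47.5 in the median and 656.5 in the highest. A slope is the log2 change of a gene per doubling of Adgre1, fitted by edgeR with the presence of Y counts and 5 blocks of consecutive mouse numbers as covariates, and a gene was called at an adjusted p under 0.05 over all genes tested. Of the 40 members, 36 were called higher with Adgre1, 1 was called lower and 3 were not called, where 31.4% of all 18379 genes tested were called higher and 43.8% lower. The median slope was 0.26 over the members and -0.025 over all genes tested. All 11 proteases rose, as did 8 of 9 enzymes of lipids and glycolipids, 4 of 5 enzymes of other glycans, 7 of 8 membrane and export proteins, 4 of 5 subunits of the proton pump and both transcription factors. In bulk tissue, fewer cells of a type and less RNA per cell cannot be told apart, so a slope against Adgre1 can follow the number of macrophages, their content of lysosomes or both. Markers of other cells moved with Adgre1 as well: 16 of 17 other macrophage markers, 8 of 8 T cell markers, 6 of 7 B cell markers, 6 of 7 mast cell markers and 9 of 12 markers of adipocyte progenitors rose, and 14 of 15 adipocyte markers fell. Over the libraries, the summed level of the macrophage list ran from 344.4 to 4326 CPM, that of the T cell list from 3.79 to 102.05 CPM and that of the adipocyte list from 7326 to 38710 CPM, and their part in the slopes of the members was not tested. Without the libraries that stand apart, 35 members were called higher, Npc1 being the one that lost its call.

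Among the lysosomal proteases, Ctss rose most. Cathepsin S (ENSMUSG00000038642, chromosome 3, 95526786 to 95556403 on GRCm38) is a cysteine protease that trims the invariant chain of MHC class II molecules. Ctss was 8.95 CPM in the lowest library, 53.6 in the median and 628.3 in the highest. It changed by 1.12 per doubling of Adgre1 (SE 0.024, edgeR adjusted p = 5.48e-174), so that it went up by 116.6% when Adgre1 doubled. Its gene overlaps the pseudogene Hmgb1-ps5, and whether the counts used strand is not given in the sources used here. Ctsk, whose product digests collagen and is best known from osteoclasts, ran from 3.23 CPM through a median of 14.2 to 167.3 CPM. The slope of Ctsk was 0.89 (SE 0.033, edgeR adjusted p = 4.03e-95), and its highest library stood 51.8 times above its lowest, a range exceeded only by those of Ctss and Cd68. Lgmn, an endopeptidase that cuts after asparagine and activates other cathepsins, had 44.4, 106.3 and 755.6 CPM in the lowest, median and highest library and a slope of 0.68 (SE 0.015, edgeR adjusted p = 3.29e-164). Ctsl, a cysteine protease found in most cells, had 188.8, 632.3 and 2034 CPM and a slope of 0.45 (SE 0.031, edgeR adjusted p = 3.13e-38).

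The other proteases had lower slopes that were all positive. Ctsh, an aminopeptidase, and Ctsa, a carboxypeptidase that also shields Neu1 and Glb1 from breakdown, had slopes of 0.40 and 0.39. Ctsz, a carboxypeptidase, and Ctsb, one of the most abundant cathepsins, had slopes of 0.34 each. The aspartic protease Ctsd had a slope of 0.26, Ctsc, which activates serine proteases of immune cells, had 0.21, and the tripeptidyl peptidase Tpp1 had 0.13. Ctsd and Ctsb, the most abundant proteases per kilobase, came after Ctss and Lgmn in this order. Ctsa, Ctsb, Ctsd, Ctsl and Ctsz each overlap at least 1 other annotated gene on GRCm38, so a part of their reads could belong to the neighbour.

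Among the enzymes of lipids and glycolipids, Lipa and Gla rose most and Smpd1 had the only slope below 0. Lipa encodes the acid lipase that frees fatty acids and cholesterol from lipids taken into the lysosome. It was 28.3 CPM in the lowest library, 93.6 in the median and 584.4 in the highest, and its slope was 0.60 (SE 0.022, edgeR adjusted p = 1.63e-94). Gla, the galactosidase that is missing in Fabry disease, had 4.004, 8.67 and 44.65 CPM and a slope of 0.49 (SE 0.017, edgeR adjusted p = 6.11e-100). Hexa, a subunit of hexosaminidase, followed with 0.39, Psap, the precursor of the saposins, with 0.31, the galactosidase Glb1 with 0.21, the ceramidase Asah1 with 0.20 and the activator protein Gm2a with 0.13. The sialidase Neu1 was nearly flat: it had 19.1, 28.65 and 82.1 CPM in the lowest, median and highest library and a slope of 0.059 (SE 0.011, edgeR adjusted p = 6.73e-07). Smpd1 encodes acid sphingomyelinase, which turns sphingomyelin into ceramide (ENSMUSG00000037049, chromosome 7, 105554360 to 105558389 on GRCm38). It had 47.98, 80.1 and 119.3 CPM in the lowest, median and highest library, a narrow range beside those of Lipa and Gla. Its slope was -0.032 (SE 0.013, edgeR adjusted p = 0.0208). This call was lost without DO021, the mouse with the highest Adgre1, where the slope was -0.027 (edgeR adjusted p = 0.0622). It was also lost without covariates (-0.000092, edgeR adjusted p = 0.995) and in the libraries without Y counts alone (-0.012, 0.657).

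Of the enzymes of glycogen, glycoproteins and glycosaminoglycans, Gusb rose most and Gaa was not called. Gusb, beta-glucuronidase, had 28.8, 76.5 and 332.9 CPM in the lowest, median and highest library and a slope of 0.54 (SE 0.017, edgeR adjusted p = 4.78e-117). The mannosidases Man2b1 and Manba had slopes of 0.39 and 0.28, and Naglu, an enzyme of heparan sulfate breakdown, had 0.28. Gaa encodes the acid glucosidase that digests glycogen in lysosomes (ENSMUSG00000025579, chromosome 11, 119267887 to 119285454 on GRCm38). It had 67.8, 115.7 and 173.3 CPM, and its slope of 0.019 was not distinguishable from 0 (SE 0.012, edgeR adjusted p = 0.139).

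The membrane proteins ranged from Cd68, the second steepest of all members, to the flat Mcoln1. Cd68 is a heavily glycosylated protein of late endosomes and lysosomes that is widely used as a macrophage marker. It had 8.83, 35.7 and 462.3 CPM in the lowest, median and highest library and a slope of 1.06 (SE 0.022, edgeR adjusted p = 1.97e-178). Npc2, which hands cholesterol to Npc1 inside the lysosome, had a slope of 0.35, the tetraspanin Cd63 had 0.25, and the coat proteins Lamp1 and Lamp2 had 0.15 and 0.084. Scarb2, the receptor that carries glucocerebrosidase to lysosomes, had 107.5, 153.6 and 273.8 CPM and a slope of 0.073 (SE 0.012, edgeR adjusted p = 6.98e-09). Npc1, the membrane protein that takes over the cholesterol from Npc2, had 39.9, 69.35 and 221.8 CPM and a slope of 0.047 (SE 0.016, edgeR adjusted p = 0.00711). The partners in cholesterol export thus differed in slope, and Npc1 overlaps another gene, Rmc1. The calcium channel gene Mcoln1 had 23.02, 36.4 and 57.9 CPM and a slope of 0.0051 (SE 0.0097, edgeR adjusted p = 0.645).

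The subunits of the proton pump did not rise together. Atp6v1b2, the catalytic sector's B subunit, had 71.7, 129.01 and 401.2 CPM in the lowest, median and highest library and a slope of 0.31 (SE 0.014, edgeR adjusted p = 2.73e-75). Its partner Atp6v1a, the A subunit that binds ATP, had 60.1, 136.7 and 303.4 CPM and a slope of 0.25 (SE 0.014, edgeR adjusted p = 2.03e-54). The remaining subunits moved less. Atp6ap1, an accessory subunit, had 104.99, 134.1 and 206.7 CPM and a slope of 0.10 (SE 0.0058, edgeR adjusted p = 1.80e-50), and Atp6v0d1, a subunit of the membrane sector, had 56.15, 89.3 and 119.6 CPM and a slope of 0.078 (SE 0.0088, edgeR adjusted p = 9.70e-17). Atp6v1h, the H subunit that regulates the pump (ENSMUSG00000033793, chromosome 1, 5070018 to 5162529 on GRCm38), had 47.6, 83.6 and 133.02 CPM and a slope of 0.015 that was not called (SE 0.013, edgeR adjusted p = 0.299). It overlaps Rgs20.

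Both transcription factors rose, though less than most of the hydrolases. Tfeb had 6.12, 9.89 and 20.9 CPM in the lowest, median and highest library and a slope of 0.15 (SE 0.013, edgeR adjusted p = 1.06e-25). Mitf had 10.04, 19.4 and 54.9 CPM and a slope of 0.25 (SE 0.017, edgeR adjusted p = 9.73e-41). Members with an E-box core in their promoter had a median slope of 0.25 (12 members), and those whose promoters lacked the core had a median of 0.30 (20 members, Tfeb and Mitf left out).

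**Figure D2:**
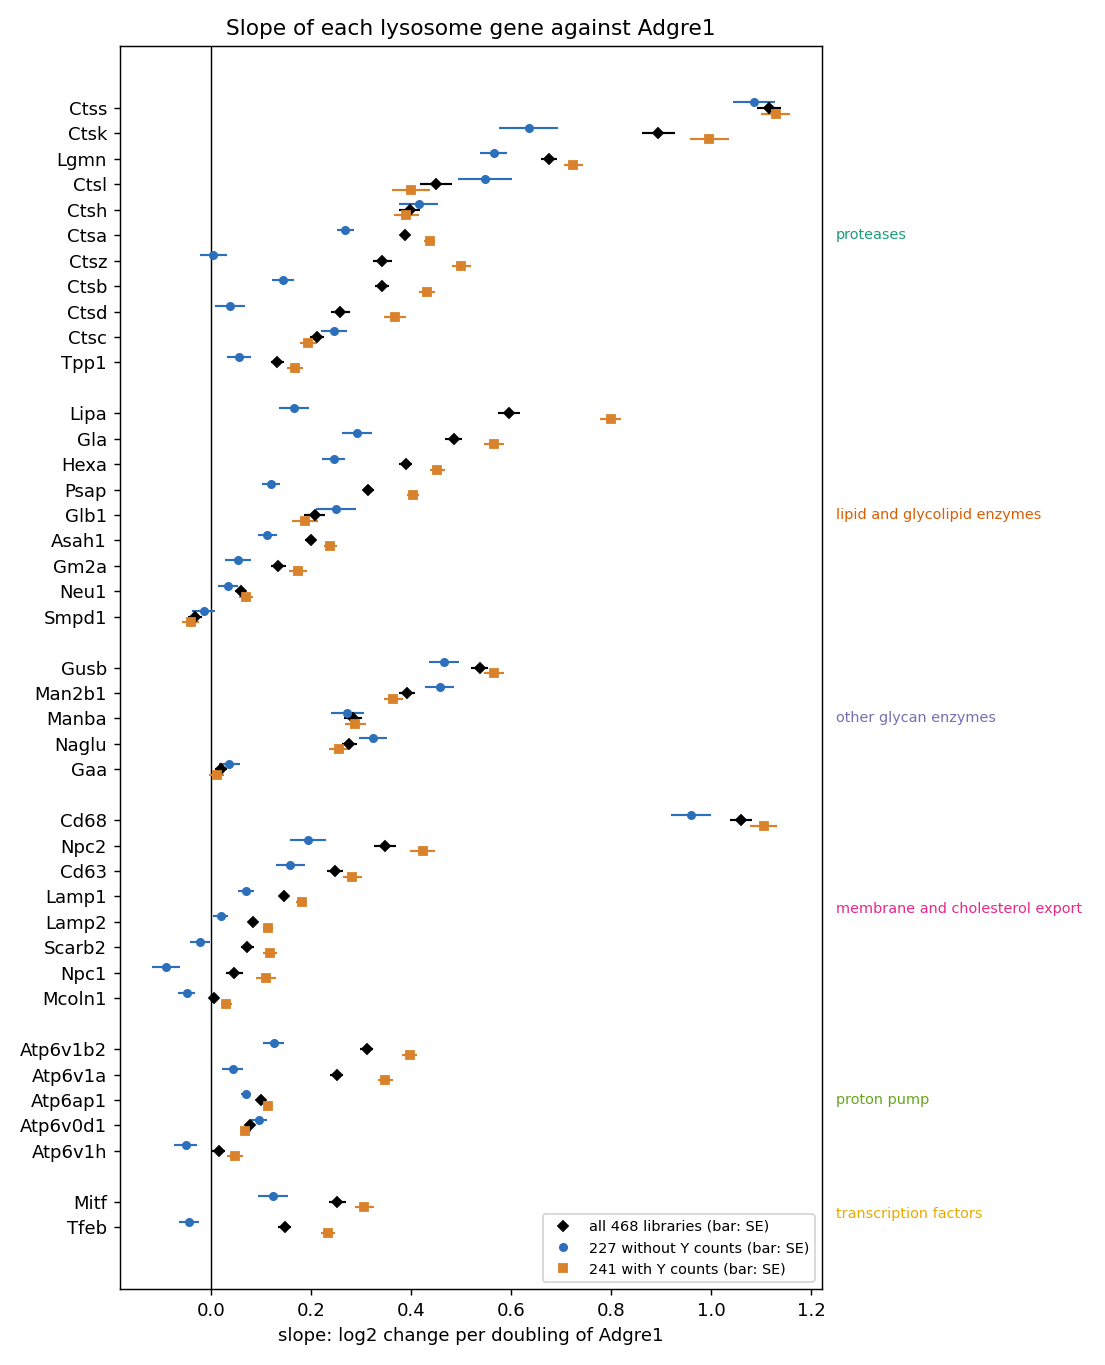
Slope of each lysosome gene against Adgre1, in log2 units per doubling of Adgre1, grouped by role. Diamonds are fits to all libraries, circles and squares are slopes within the libraries without and with Y counts, and bars are SE. Ctss and Cd68 lie near 1, most members lie between 0.05 and 0.50, and Smpd1, Mcoln1, Atp6v1h and Gaa lie near 0.

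A doubling of Adgre1 can be reached with different kinds of macrophages, so the members were also fitted against Trem2, the lipid receptor of lipid-associated macrophages. Trem2 varied more than Adgre1, from 0.913 CPM in the lowest library through a median of 21.6 to 193.3 in the highest. It went only loosely with Adgre1, with r = 0.19 (rho = 0.18) in libraries without Y counts (two-sided permutation p = 0.00354, adjusted over 12 comparisons 0.00354) and r = 0.56 (rho = 0.51) in those with them (two-sided permutation p = 1e-05, the smallest that 100000 resamples can give, adjusted 1.33e-05). Without the 2 libraries farthest from the median of Adgre1, r was 0.20 and 0.54. By comparison, Adgre1 and Csf1r, the receptor for the macrophage growth factor, had r = 0.77 and 0.94 (rho = 0.81 and 0.92, two-sided permutation p = 1e-05 each, adjusted 1.33e-05, r without 2 libraries 0.84 and 0.93). Against Trem2 alone, 33 members were called higher and none lower by edgeR, where 25.6% of all genes were called higher, and their median slope was 0.081 against -0.0042 over all genes. The order was like that for Adgre1 at its top, with Ctss (0.36), Cd68 (0.35), Ctsk (0.31) and Lgmn (0.21) first. Without the libraries that stand apart Neu1 was called as well.

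With Adgre1 held fixed, 23 of the 40 members still rose with Trem2, none fell and 17 were not called, where 8.05% of all 18378 genes tested were called higher. The median slope was 0.022 over the members and -0.00040 over all genes tested. The largest slopes belonged to proteases and to macrophage-type members. Ctsk had 0.095 per doubling of Trem2 (SE 0.018, edgeR adjusted p = 4.81e-05), Ctsl had 0.094 (SE 0.015, edgeR adjusted p = 2.02e-06), and Ctss and Cd68 had 0.072 each (SE 0.013 and 0.012, edgeR adjusted p = 2.07e-05 and 4.38e-06). Gla followed with 0.055 (SE 0.0095, edgeR adjusted p = 9.47e-06). Ctsl thus ranked higher here than by its slope against Adgre1. The lowest slopes were those of Npc1 (-0.0045, SE 0.0091, edgeR adjusted p = 0.787), Ctsc (-0.0043, SE 0.0078, 0.756), Neu1 (-0.0040, SE 0.0063, 0.720), Scarb2 (-0.0024, SE 0.0065, 0.845) and Atp6v1h (0.00099, SE 0.0070, 0.947), none of them called. Ctsc, which rose with Adgre1, thus had a slope against Trem2 that was not distinguishable from 0. Of the proton pump only Atp6ap1 was called, and neither Tfeb nor Mitf was. Without DO021 the calls numbered 19, with Ctsd, Lipa, Npc2 and Psap no longer called, and in the libraries with Y counts alone they numbered 6 (Ctsk, Ctss, Gla, Gusb, Lgmn and Cd68), where 0.288% of all genes were called higher. In the libraries without Y counts alone, 20 members were called higher, where 9.26% of all genes were. With Gpnmb, another gene of lipid-associated macrophages, in place of Trem2, 34 members were called higher and 1 lower, where 20.3% of all genes were called higher and 21.7% lower. Gpnmb itself went more closely with Adgre1 (r = 0.63 and 0.87, rho = 0.57 and 0.87, two-sided permutation p = 1e-05 each, adjusted 1.33e-05, r without 2 libraries 0.66 and 0.86) than Trem2 did. Trem2 and Gpnmb had r = 0.26 without and 0.59 with Y counts (rho = 0.18 and 0.55, two-sided permutation p = 0.00012 and 1e-05, adjusted 0.000144 and 1.33e-05, r without 2 libraries 0.26 and 0.58). They are thus not interchangeable as measures of lipid-associated macrophages.

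Whether any lysosome gene went with adipocytes was measured with a score over 15 adipocyte markers, with Adgre1 held fixed because it moved against the score (r = -0.46 without and -0.67 with Y counts, rho = -0.49 and -0.62, two-sided permutation p = 1e-05 each, adjusted 1.33e-05, r without 2 libraries -0.40 and -0.63). Of the 40 members, 12 were called higher with the adipocyte score, 19 lower and 9 were not called, where 27.4% of the 18364 genes tested were called higher and 38.7% lower. The median slope, here a log2 change per 1 SD of the score, was -0.023 over the members and -0.017 over all genes, so as a list the members did not lean towards adipocytes. The protein products of the members called higher are mixed in role: 5 proteases (Ctsb, Ctsc, Ctsd, Ctsl and Tpp1), 2 enzymes of lipids (Smpd1 and Gm2a), Gaa, Lamp1, Npc2 and 2 subunits of the pump (Atp6v1h and Atp6v0d1). The steepest falls belonged to Ctsk (-0.26, SE 0.036, edgeR adjusted p = 1.27e-11), Ctss (-0.17, SE 0.026, 9.98e-10), Ctsh (-0.16, SE 0.022, 1.84e-12) and Lgmn (-0.15, SE 0.016, 1.02e-16), each of them higher with Adgre1. Without the libraries that stand apart, 8 members were called higher and 17 lower, as Ctsb, Ctsl, Gm2a and Tpp1 lost a call for higher, Glb1, Man2b1 and Naglu lost one for lower and Asah1 gained one for lower.

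Smpd1, Atp6v1h and Gaa were the members that were called higher with the adipocyte score and not higher with Adgre1. Smpd1 had the highest adipocyte slope, 0.13 (SE 0.013, edgeR adjusted p = 1.75e-21), at the 89.5th percentile of all genes tested. It was called in the same direction within the libraries without Y counts (0.078, edgeR adjusted p = 2.25e-05) and within those with them (0.14, 5.19e-16), and with Adipoq, the adiponectin gene, in place of the score (0.11, 3.66e-06). Atp6v1h came next with 0.12 (SE 0.013, edgeR adjusted p = 5.25e-17), with 0.11 and 0.12 in the libraries without and with Y counts (edgeR adjusted p = 1.63e-09 and 1.01e-11). With Adipoq in place of the score, though, its slope was 0.00093 (edgeR adjusted p = 0.979), so its place beside adipocytes depended on which adipocyte genes were used. Gaa had 0.035 (SE 0.013, edgeR adjusted p = 0.0122). It was not called within either cluster of libraries alone (0.027 and 0.036, edgeR adjusted p = 0.123 and 0.0895) or without Adgre1 in the fit (0.012, 0.285), whereas it was with Adipoq (0.098, 2.73e-05). Mcoln1 was called with neither measure.

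A group of 9 members was higher with both measures (Ctsb, Ctsc, Ctsd, Ctsl, Lamp1, Npc2, Gm2a, Tpp1 and Atp6v0d1). Several of these adipocyte calls depended on the libraries or on the adipocyte genes used. Ctsb, Ctsl, Gm2a and Tpp1 lost theirs without the libraries that stand apart, and with Adipoq in place of the score Lamp1, Gm2a and Tpp1 lost theirs and Ctsb, Ctsd and Npc2 had slopes below 0. Npc2 had an adipocyte slope of 0.087 (SE 0.023, edgeR adjusted p = 0.000471) against the score and -0.0028 against Adipoq. Ctsc and Atp6v0d1 kept their calls under both of these changes, with slopes of 0.070 and 0.067 (SE 0.016 and 0.0090, edgeR adjusted p = 2.88e-05 and 1.64e-12) against the score. Ctsc lost its call in the libraries without Y counts alone. Without Adgre1 in the fit, Ctsc had a slope of -0.077 (edgeR adjusted p = 4.63e-07) and Atp6v0d1 was not called. A further 19 members were higher with Adgre1 and lower with adipocytes, among them Tfeb (-0.078, SE 0.014, edgeR adjusted p = 2.55e-07) and Mitf (-0.081, SE 0.019, 9.56e-05). The remaining 8 were higher with Adgre1 and not called with adipocytes, including Atp6v1a (0.019, SE 0.016, edgeR adjusted p = 0.290), Atp6v1b2 (-0.016, SE 0.016, 0.375) and Atp6ap1 (0.010, SE 0.0063, 0.146). When Adgre1 was left out of the fit, 34 members were called lower with the adipocyte score and 2 higher, Smpd1 and Atp6v1h. The share of all genes called in that fit is not given here, so this count does not set the members apart from other genes.

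**Figure D3:**
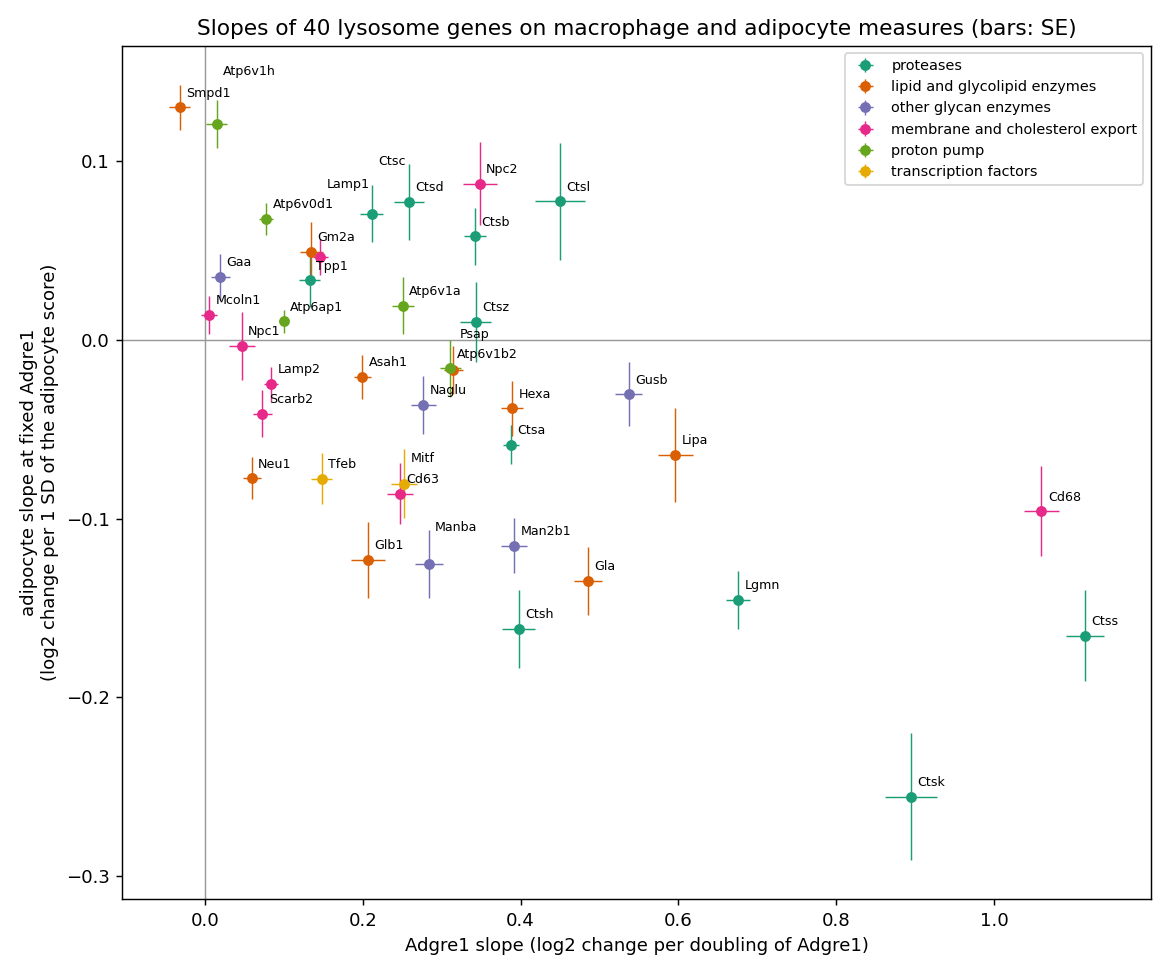
Adipocyte slope at fixed Adgre1 (vertical axis, log2 change per 1 SD of the adipocyte score) against Adgre1 slope (horizontal axis, log2 change per doubling of Adgre1) for 40 lysosome genes, coloured by role, with bars for SE. Smpd1 and Atp6v1h lie at the upper left, with adipocyte slopes of 0.13 and 0.12 and Adgre1 slopes near 0, and Ctss and Cd68 lie at the far right, below 0 on the vertical axis.

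Tfeb and Mitf are transcription factors of 1 family, and the other 38 members were fitted against both, with Adgre1 also held fixed. Against Tfeb, 25 members were called higher, 3 lower and 10 not, where 25.8% of all genes were called higher and 27.9% lower, and the median slope was 0.18 over the members and -0.024 over all genes. The members that rose most per doubling of Tfeb were Lipa (0.96, SE 0.064, edgeR adjusted p = 2.90e-39) and Ctsz (0.81, SE 0.055, 2.92e-37), followed by Psap (0.50, SE 0.033, 7.96e-39), Ctsd (0.49, SE 0.064, 1.18e-12) and Atp6v1b2 (0.46, SE 0.044, 7.44e-22). Those that fell were Ctsl (-0.39, SE 0.10, edgeR adjusted p = 0.000530), Ctsc (-0.13, SE 0.052, 0.0217) and Asah1 (-0.12, SE 0.038, 0.00443). The call of Ctsc was lost without the libraries that stand apart (-0.11, edgeR adjusted p = 0.0775), with total count and ribosomal RNA added to the fit, when the tenth of libraries lowest in total count was left out, and within each cluster of libraries alone. That of Asah1 was lost in the libraries with Y counts alone. Gusb and Man2b1 lost their calls for higher without the libraries that stand apart. Smpd1 had a slope of 0.00057 against Tfeb (SE 0.044, edgeR adjusted p = 0.993). In the libraries without Y counts alone the calls numbered 11 higher and 4 lower, where 21.9% of all genes were higher and 23.2% lower. In those with them they numbered 19 higher and 3 lower, where 20.4% of all genes were higher and 18.4% lower. Lipa, Ctsz, Psap and Atp6v1b2 were called higher in both. Adipocyte markers moved with Tfeb too, 10 of 15 being lower and 3 higher, and their part in these slopes was not tested.

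Against Mitf, 14 members were called higher, 8 lower and 16 not, where 18.2% of all genes were called higher and 24.7% lower. Npc1 rose most (0.43, SE 0.039, edgeR adjusted p = 2.86e-22), the member that was among the flattest against Adgre1. Ctsk had 0.31 (SE 0.090, edgeR adjusted p = 0.00280), Asah1 0.25 (SE 0.028, 7.63e-15) and Lamp2 0.19 (SE 0.022, 3.65e-15). Asah1 thus rose with Mitf and fell with Tfeb. Ctsl fell with both, by 0.31 on the log2 scale per doubling of Mitf (SE 0.079, edgeR adjusted p = 0.000458), and Glb1 and Smpd1 had -0.23 (SE 0.059, 0.000595) and -0.20 (SE 0.034, 6.10e-08). Without the libraries that stand apart, Ctsd and Npc2 gained a call for lower, Ctsz lost its call for higher and Man2b1 lost its call for lower. The call of Ctsk was lost in the libraries with Y counts alone and that of Glb1 in those without them. Npc1, Asah1, Lamp2, Ctsl and Smpd1 kept theirs in both. In the libraries without Y counts alone, more members were called lower (13) than higher (7), given here without the share of all genes. In the promoters, the members with an E-box core had median slopes of 0.12 against Tfeb and -0.0086 against Mitf, and those whose promoters lacked the core had 0.20 and 0.076. These levels are of transcripts, and both factors are known to be controlled by their entry into the nucleus, which was not measured.

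The slope against Adgre1 differed between the libraries with and without Y counts for most members. The interaction term was called steeper with Y counts for 28 members and shallower for 1, where 21.9% of all genes were steeper and 28.8% shallower, and its median was 0.12 over the members and -0.021 over all genes tested. Within the libraries without Y counts, 27 members were called higher and 4 lower with Adgre1, where 31.7% of all genes were higher and 31.9% lower. Within those with Y counts, 38 were higher and 1 lower (Smpd1), where 29.3% of all genes were higher and 43.3% lower. The difference was largest for Lipa, which had a slope of 0.17 without and 0.80 with Y counts (difference 0.63, SE 0.038, edgeR adjusted p = 1.69e-44). Ctsz was flat without Y counts (0.0046, edgeR adjusted p = 0.894) and had 0.50 with them, a difference of 0.50 (SE 0.034, edgeR adjusted p = 1.16e-35). Ctsk went from 0.64 to 0.9965, Ctsd from 0.038 to 0.37, Atp6v1a from 0.043 to 0.35 and Psap from 0.12 to 0.40. Tfeb turned its direction, from -0.044 (edgeR adjusted p = 0.0468) to 0.23 (1.13e-48), as did Npc1, from -0.091 (0.00259) to 0.11 (5.35e-08). For Ctss the difference was 0.043 (SE 0.053, edgeR adjusted p = 0.528), so the steepest member showed no measurable difference. Man2b1 was the 1 member called shallower, with -0.092 (SE 0.036, edgeR adjusted p = 0.0220). It lost this call without the libraries that stand apart (-0.030, 0.459), where Ctsl was called shallower (-0.17, 0.0298) and Neu1 steeper (0.066, 0.00789). Of 17 macrophage markers 5 were called steeper and 3 shallower, with a median difference of 0.036. Without DO021, which held no Y counts, 26 members were steeper and 5 shallower, as Gusb and Cd68 lost their calls and Ctsl, Glb1, Naglu and Atp6v0d1 gained one.

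This difference went along with a difference in the range of Adgre1. Adgre1 was parted into 4 ranges, under 32 CPM, 32 to 64 CPM, the next doubling and all levels above that. Of the libraries without Y counts, 27.8%, 60.4%, 10.6% and 1.32% (3 libraries) lay in these ranges, and of those with Y counts 7.47%, 43.6%, 30.3% and 18.7%. Median Lipa over these 4 ranges was 91.2, 88.3, 117.1 and 241.1 CPM without Y counts and 66.2, 82.9, 146.2 and 295.6 CPM with them. Lipa was thus flat over the lower ranges without Y counts and rose over the upper ranges in both, and with Y counts it rose from the lowest range on. Ctsd showed the same form, with 1545, 1382, 1751 and 2004 CPM without Y counts and 953, 1172, 1599 and 1928 with them. Tfeb had 10.6, 9.74, 10.1 and 13.8 CPM without Y counts and 8.72, 8.96, 10.3 and 14.02 with them. Smpd1 stayed within a narrow band, from 75.5 to 81.8 CPM without Y counts and from 73.95 to 86.2 with them. Its lowest median was that of the highest range with Y counts. When the fit was limited to the 46.6% of libraries whose Adgre1 lay in the range common to both clusters, 35.1 to 65.7 CPM, 23 members were called higher with Adgre1 and none lower by edgeR, where 15.7% of all genes were called higher and 17.7% lower. In the same libraries 4 members were steeper with Y counts (Lipa, Ctsz, Atp6v1a and Ctsb), where 2.22% of all genes were. The difference for Lipa was 0.67 there (SE 0.13, edgeR adjusted p = 0.000374) and that for Ctsz 0.48 (SE 0.14, 0.0217). Tfeb and Npc1, which turned direction over all libraries, were called in neither cluster there. Fewer libraries and a narrower range both widen the errors in this fit.

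**Figure D4:**
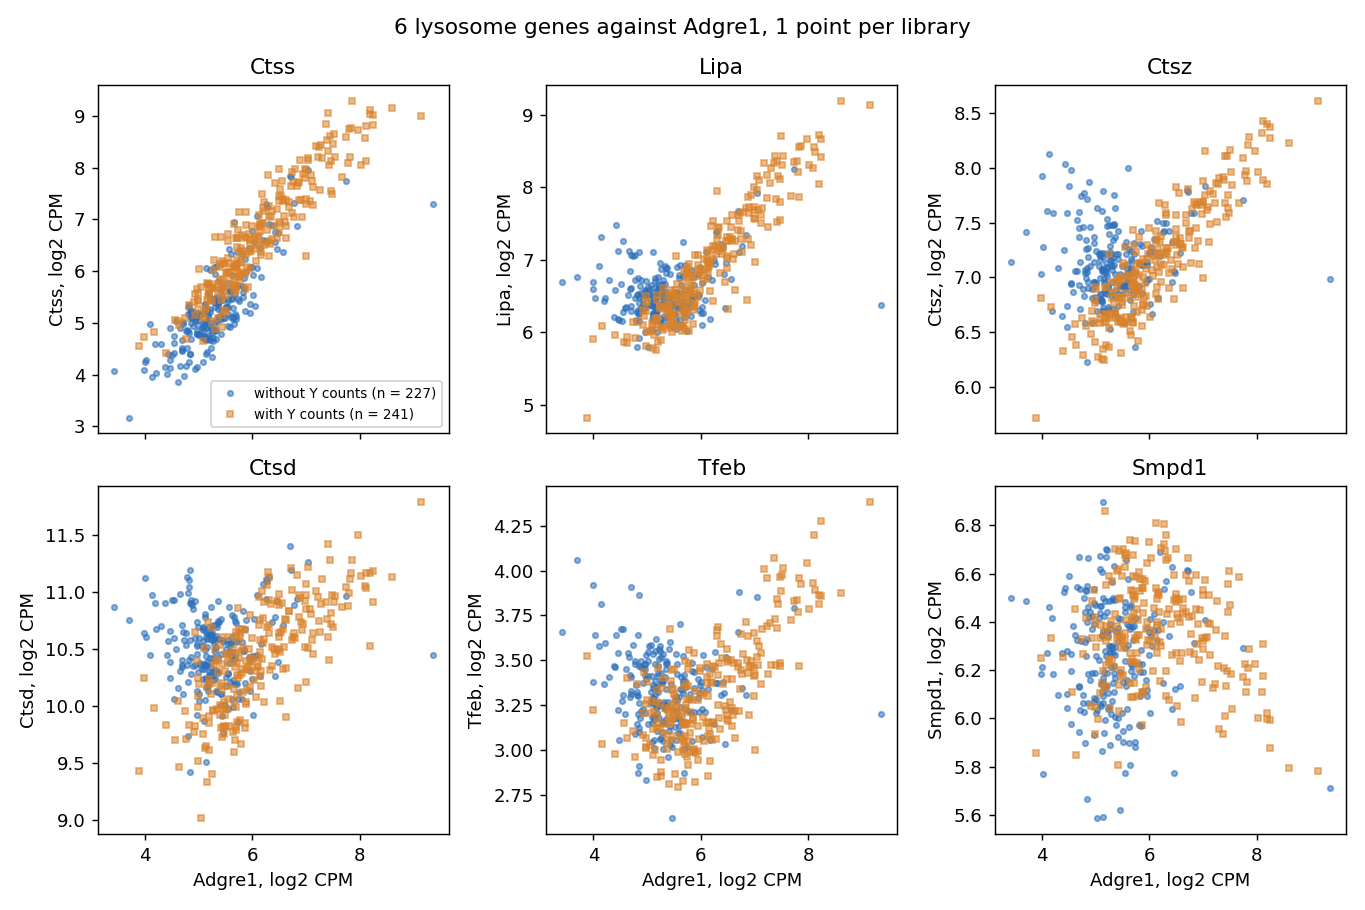
Log2 CPM of 6 lysosome genes against log2 CPM of Adgre1, 1 point for each library, with circles for libraries without and squares for libraries with Y counts. Ctss rises over the whole range in both, and Smpd1 is flat. Lipa, Ctsz, Ctsd and Tfeb rise over the upper range of Adgre1, which is held mostly by libraries with Y counts. In the range common to both clusters, Lipa, Ctsz and Ctsd were called higher with Adgre1 with Y counts and not without them. The difference itself was called there for Lipa and Ctsz and not for Ctsd (0.46, edgeR adjusted p = 0.0646).

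The wider set of lysosome genes was followed in a second list of 100 genes with other lysosomal roles, written with earlier results of these data known, of which 98 were tested. Of these, 68 were called higher with Adgre1, 17 lower and 13 not, with a median slope of 0.062, a lower share called higher and a lower median than those of the 40 members. Of all genes tested, 31.4% were called higher and 43.8% lower, with a median slope of -0.025. The highest slopes among called genes whose mean reached 10 CPM were those of Atp6v0d2 (1.96, SE 0.061, edgeR adjusted p = 1.04e-117), a pump subunit of osteoclasts and macrophages, and the membrane glycoprotein Gpnmb (1.74, SE 0.055, 5.81e-115). Lysozyme (Lyz2, 0.80, SE 0.021, 2.50e-142), the membrane protein Laptm5 (0.74, SE 0.016, 1.21e-174) and the metal transporter Slc11a1 (0.71, SE 0.016, 2.00e-164) came next. The pump subunit Atp6v0d2 thus had a slope of 1.96 where the member Atp6v0d1, which holds the same place in the pump of most cells, had 0.078. The lowest slopes were those of the hyaluronidase Hyal1 (-0.24, SE 0.029, edgeR adjusted p = 4.33e-15), the sorting receptor Sort1 (-0.14, SE 0.013, 7.17e-24), Plbd1 (-0.13, SE 0.018, 1.09e-11), folliculin (Flcn, -0.094, SE 0.019, 1.38e-06) and the iron transporter Slc11a2 (-0.091, SE 0.017, 1.45e-07).

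Pairs of members varied together more closely in libraries with Y counts. Over the 780 pairs of members the median r of log2 CPM was 0.23 without Y counts (80.4% of pairs above 0) and 0.55 with them (95.3% above 0), where the median over pairs of 2000 genes drawn from all genes tested was -0.0010 and -0.0024. All pairs share libraries, depth and cell make-up, so the values are a description and carry no p. By r averaged over both clusters, the closest pairs joined members that were steep with Adgre1. Lgmn and Cd68 had r = 0.89 without and 0.96 with Y counts (rho = 0.85 and 0.95), Ctss and Cd68 had 0.88 and 0.96 (rho = 0.81 and 0.95), and Ctsa and Cd68 had 0.86 and 0.94 (rho = 0.81 and 0.94). Ctss and Lgmn followed with 0.82 and 0.94 (rho = 0.73 and 0.94), and Lipa and Psap with 0.78 and 0.95 (rho = 0.70 and 0.94). Without the 2 libraries farthest from the median, r of these pairs lay between 0.75 and 0.96. By the same average, the lowest pairs all included Smpd1, with Mitf (r = -0.26 and -0.32, rho = -0.25 and -0.25), Cd63 (-0.27 and -0.28, rho = -0.25 and -0.19), Npc1 (-0.21 and -0.28, rho = -0.15 and -0.25), Manba (-0.12 and -0.25, rho = -0.11 and -0.23) and Asah1 (-0.25 and -0.097, rho = -0.20 and -0.026). Within the libraries without Y counts alone, other pairs were lower. The lowest there, at -0.47, joined an enzyme of other glycans and a membrane or export protein. The member closest to Smpd1 was Atp6v1h in both clusters (r = 0.52 and 0.42). Atp6v1h itself went most closely with other subunits of the pump, Atp6v1a without Y counts (r = 0.76) and Atp6v0d1 with them (r = 0.65).

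By role, the proteases had a median r among themselves of 0.37 without and 0.71 with Y counts, and the subunits of the proton pump 0.45 and 0.62. The enzymes of other glycans were the most alike without Y counts, at 0.46, and changed least, to 0.54. Apart from the single pair of transcription factors, the membrane proteins were the least alike without Y counts, at 0.11. The median r of a member with the other members changed most for Ctsz, from 0.15 without to 0.79 with Y counts. Tfeb came next, with -0.0046 without Y counts, where 20 of its pairs were below 0, and 0.58 with Y counts, where 2 were. Gaa and Smpd1 were the members whose median r was lower with Y counts than without, at 0.15 and 0.038 for Gaa and 0.15 and -0.095 for Smpd1.

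**Figure D5:**
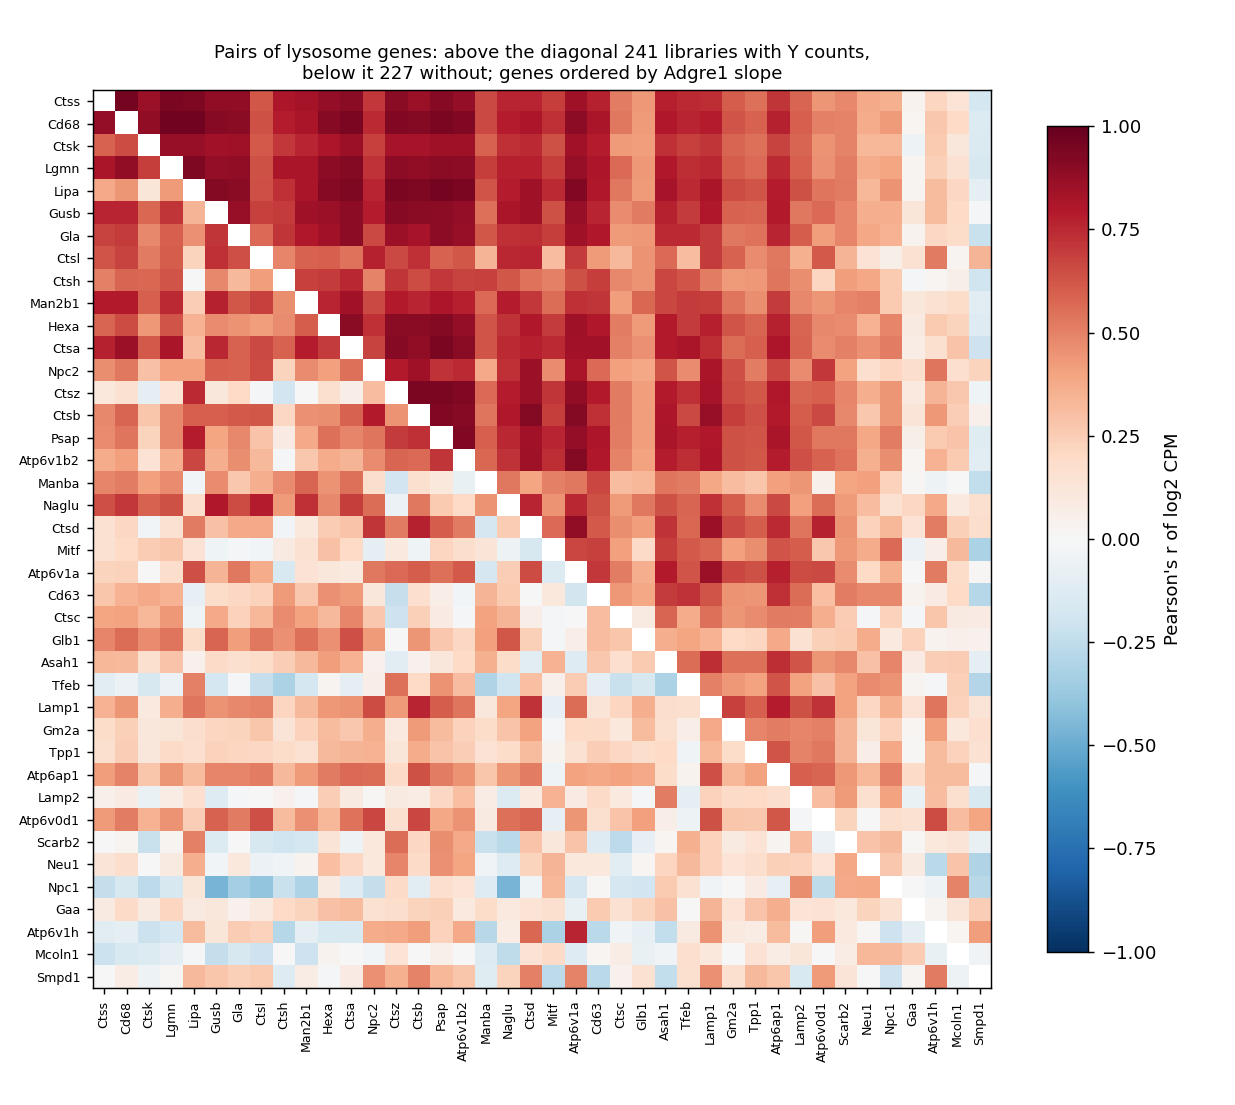
Pearson's r of log2 CPM for each pair of 40 lysosome genes, ordered by Adgre1 slope, from -1 in blue to 1 in red. Above the diagonal are libraries with Y counts (median r 0.55) and below it those without (median r 0.23). Above the diagonal the last column, that of Smpd1, is the palest or bluest. Without Y counts the lowest median r with other members was that of Npc1 (-0.11), beside 0.15 for Smpd1.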

How the data were processed

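Adipose RNA of 468 Diversity Outbred mice, 1 library each, was made into libraries from polyadenylated RNA by the authors and sequenced. The count table deposited by the authors holds expected counts, which EMASE within GBRS estimated for each gene by expectation maximization. Both reads of a pair were aligned singly, against the pooled transcripts of the 8 founder strains. Reads shared by transcripts are divided between them, so counts of overlapping or near-identical genes are uncertain, and any use of strand is not given in the sources used here. A second deposited table holds values on a log2-like scale from the variance stabilizing transformation of DESeq2 by the authors and was used for alternatives only. Gene positions came with the deposited tables, and the submitters' processing notes name GRCm38. All sample columns were used.

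Genes with 10 or more counts in no fewer than 50% of libraries were kept. CPM and log2 CPM (prior count 2) were computed with TMM factors by edgeR 4.0.16 in R 4.3.3. Expected counts were rounded for glmQLFit and glmQLFTest, with the Benjamini-Hochberg adjustment over all genes tested and a threshold of 0.05. A gene used as the measure, and the 15 genes of the adipocyte score (the mean of z-scored log2 CPM), were left out of the genes tested. The study used sex, generation and wave as covariates. The labels give none of these, so the presence of Y chromosome counts (227 libraries without and 241 with them) and 5 blocks of consecutive mouse numbers (93 or 94 libraries each) stood in for them. Correlations were computed within the libraries with and without Y counts, with 100000 resamples for two-sided permutation tests. The fit against Adgre1 was also run on simulated counts with known slopes. Genes were drawn independently there and few had a slope, unlike in these data, so that run cannot vouch for the calls reported here. limma 3.58.1 and DESeq2 1.42.0 were used for alternatives, numpy 2.4.6, pandas 2.3.3 and matplotlib 3.10.9 for summaries and figures. Libraries were said to stand apart if ribosomal RNA took over 10% of their counts, if they held neither Y counts nor 20 CPM of Xist, or if a list of muscle, pancreas, epididymis or liver genes exceeded 20 times its median and 100 CPM.

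Members and gene lists were chosen with earlier results of these data known. Full statistics were given for the 8 members with the highest and the 8 with the lowest Adgre1 slope, the 5 highest and 5 lowest for Trem2 at fixed Adgre1, the members that went with adipocytes, Tfeb, Mitf and the 5 pump subunits, and for the 5 highest and 5 lowest slopes of called genes whose mean reached 10 CPM in the list of other lysosome genes. Pairs were named if among the 5 highest or 5 lowest by mean r. Members named beyond these (for example Hexa, Ctsh or Lamp2, and those under Tfeb, Mitf and the difference between clusters) were chosen after their values were seen. Of 16 alternatives planned and 4 added after seeing the data (Gpnmb or Itgax in place of Trem2, the data without mouse DO021, and the shared range of Adgre1), the effects are given with the limits of the results. Promoters came from RefSeq (GRCm38.p6). Since there is 1 library per mouse, the spread behind the p-values holds differences between mice and assay error together. Relatedness between the mice was not in the fits.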

Additional observations from a re-analysis of the deposited data

Results flagged for a closer look

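These results stand out because the slope of a lysosome gene against Adgre1 differed between the libraries with and without Y chromosome counts by edgeR's test of the difference itself, with an adjusted p under 0.05. All values are differences in log2 change per doubling of Adgre1, slope with minus slope without Y counts. By the same test, 21.9% of all 18379 genes tested were steeper with Y counts and 28.8% shallower. A called difference was thus common among all genes, and the members differed from them in leaning towards steeper slopes. The proteases Ctsz (0.50), Ctsk (0.36), Ctsd (0.33), Ctsb (0.29), Ctsa (0.17), Lgmn (0.16) and Tpp1 (0.11) were steeper with Y counts. Of the enzymes of lipids and glycolipids, Lipa (0.63), Psap (0.28), Gla (0.27), Hexa (0.21), Asah1 (0.13) and Gm2a (0.12) were steeper. Of the membrane and export proteins, Npc2 (0.23), Npc1 (0.20), Cd68 (0.15), Scarb2 (0.14), Cd63 (0.12), Lamp1 (0.11), Lamp2 (0.095) and Mcoln1 (0.080) were steeper. Of the proton pump, Atp6v1a (0.30), Atp6v1b2 (0.27), Atp6v1h (0.098) and Atp6ap1 (0.043) were steeper, as were the transcription factors Tfeb (0.28) and Mitf (0.18) and the glucuronidase Gusb (0.10). The mannosidase Man2b1 (-0.092) was shallower. For Npc1, Scarb2, Mcoln1, Atp6v1h and Tfeb the slope was below 0 without and above 0 with Y counts. When the libraries without Y counts were fitted alone, Scarb2 (-0.024, edgeR adjusted p = 0.321) and Atp6v1h (-0.050, 0.0639) were not called. With Y counts, Npc1 (-0.14), Scarb2 (-0.022) and Tfeb (-0.0011) lay below 0 in the shared range of Adgre1, none of them called. In the range of Adgre1 that both clusters share, Lipa, Ctsz, Atp6v1a and Ctsb were called steeper, and the part of sex or cell make-up in any of these differences was not tested.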

How the results depend on the processing

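Each slope was computed under every alternative planned for it and those added after the data were seen. Counts of called members in this section show how calls moved. They are given without the share of all genes and do not set the members apart. Of 640 values of single members for the slope against Adgre1, 12 changed sign and, of the rest, 21 lost a call and 2 gained one. Of 600 for the slope against Trem2 at fixed Adgre1, 33 changed sign and, of the rest, 28 lost a call and 24 gained one. Members named below for a change of sign were called before or after it, and changes between slopes that were not called are left out except for Atp6v1h. The cause of each change below was not tested. In libraries without Y counts alone, members called lower with Adgre1 numbered 3, and Npc1 (-0.090), Scarb2 (-0.024), Mcoln1 (-0.046), Tfeb (-0.045) and Atp6v1h (-0.050, not called) turned to slopes below 0. There 21 members were higher with Trem2, Ctsz (-0.025) and Tfeb (-0.016) turned below 0, and at fixed Adgre1 Lipa (-0.00012) and Psap (-0.00022) did. With adipocytes 8 were lower, and Ctsl (-0.044), Neu1 (0.041), Scarb2 (0.0062) and Tfeb (0.0044) changed sign. With Mitf 7 were higher and 13 lower, and Ctsb (-0.13), Gla (-0.17) and Atp6v1a (-0.15) changed sign. With Tfeb 11 were higher, and Ctsk (-0.28), Gusb (-0.13), Man2b1 (-0.12) and Cd63 (-0.082) changed sign. In libraries with Y counts alone, 6 were higher with Trem2 at fixed Adgre1 and 5 lower with Mitf, and Hexa (0.0011, adipocytes), Ctsh (0.25), Lamp1 (-0.082), Npc2 (-0.14), Smpd1 (-0.22) and Atp6v1h (-0.25, all with Tfeb) changed sign.

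Without covariates Mcoln1 had -0.038 with Adgre1 and -0.011 with Trem2, the 1 member then called lower with Trem2. Without DO021 no member was lower with Adgre1 (0 by edgeR, where Smpd1 had an adjusted p of 0.0622) and 5 were shallower with Y counts. In the shared range of Adgre1, 23 members were higher and 0 lower, with Npc1 (-0.11), Scarb2 (-0.030), Tfeb (-0.043) and Atp6v1h (-0.038, not called) turned below 0 and Smpd1 (-0.058, no longer called) still below 0. The differences there numbered 4 steeper and 0 shallower, with Ctsa (-0.055), Npc1 (-0.054), Asah1 (-0.013), Gm2a (-0.0076), Man2b1 (0.017), Tpp1 (-0.27), Cd63 (-0.23) and Atp6ap1 (-0.023) of the opposite sign. Members called shallower numbered 0 with limma on log2 CPM, 0 with limma on the deposited VST values, 0 when the tenth of libraries lowest in total count was left out, 2 with total count and ribosomal RNA added, and 3 with capped counts.

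With Itgax in place of Trem2, 2 members were lower (Npc1 -0.017 and Mcoln1 -0.012 turned), and at fixed Adgre1 5 were lower (Lamp2 -0.020, Mcoln1 -0.037, Cd63 -0.0031 and Mitf -0.039 turned). With Gpnmb at fixed Adgre1, 1 was lower and the median was 0.066, with Ctsh (-0.031), Neu1 (0.037) and Scarb2 (0.042) turned. With Adipoq in place of the adipocyte score, 5 were higher, and Ctsb (-0.023), Ctsd (-0.060), Ctsz (-0.21), Npc2 (-0.0028), Naglu (0.029) and Atp6v1a (-0.16) turned. Without Adgre1 in that fit, 2 were higher and 34 lower (median -0.17), and Ctsb (-0.17), Ctsc (-0.077), Ctsd (-0.10), Ctsl (-0.19), Ctsz (-0.20), Lamp1 (-0.052), Npc2 (-0.14), Gm2a (-0.045), Tpp1 (-0.054), Atp6v1a (-0.13) and Atp6ap1 (-0.047) turned.

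The median r of pairs lay between 0.221 and 0.234 without and between 0.556 and 0.563 with Y counts under its alternatives. No paired analysis was possible because each mouse gave 1 library and there is 1 group. The lowest level of these genes in any library was 3.23 CPM, a value already scaled by total count. Some calls changed when the tenth of libraries lowest in total count was left out. Ctsl, Gm2a and Tpp1 lost theirs with adipocytes, and Ctsc, Ctsk and Man2b1 lost theirs with Tfeb. Man2b1 also lost its calls with Mitf and for the difference between clusters. Asah1 gained a call with adipocytes and Neu1 gained one for that difference. The part of depth in these changes was not tested, and cell make-up was not measured.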
